A study of Bos taurus with 15 samples.

Results

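The genes described here carry out meiotic recombination and build the synaptonemal complex in the testis of cattle. The list held 31 genes, chosen by their known roles, and a probe was assigned to one of them when its symbol, accession, gene number or description named that gene. Of these, 21 had a named probe, 24 probes in all, and all 21 were tested among 13433 named genes. No named probe was found for SYCP2, SYCE2, SYCE3, HORMAD2, MEI1, MEIOB, TEX15, RNF212, TEX101 or TEX14, and these 10 genes were not analysed here.

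Meiotic recombination begins with deliberate breaks in the DNA of early spermatocytes. The broken ends are trimmed and searched against the homologous chromosome by strand exchange proteins, and a minority of the resulting joints mature into crossovers. Meanwhile the paired chromosomes are held together along their length by the synaptonemal complex, a protein zipper assembled on a cohesin-based chromosome axis. In testis most of these genes are transcribed mainly in germ cells, so their level in whole tissue also follows how many spermatocytes the tissue holds.

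Total RNA of testis collected at the slaughterhouse was measured on single-colour oligonucleotide arrays in 15 animals. Prednisolone, a synthetic glucocorticoid, was given by mouth to 8 animals for 35 days, at a daily 30 mg per head. The other 7 animals, the controls, received none. The labels gave neither age nor breed, called the treated animals cows although the tissue was testis, and put 1 animal on each array. The comparison asked whether testis transcripts differed between treated and untreated animals.

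On 14 arrays, 82.2% to 89.9% of probes were well above background, but on the array of prednisolone 30 only 36.5% were. The 75th percentile of its signal was 49.8, against 1220 to 2780 on the other 14 arrays, and 11 of the 21 genes were not well above background on it. For this array the scanner file and the authors' deposited table hold different values (Spearman correlation 0.686 over probes, against at least 0.99998 on the other arrays). Markers fitted the tissue label: 8 of 8 germ cell, 12 of 12 Sertoli cell and 7 of 7 Leydig cell markers were well above background on at least 14 arrays, as were 14 of 15 spermatid markers. Control 17 stood apart in its markers of stroma, with values given beside the results it touches. Each listed gene is therefore given with all arrays and without prednisolone 30, and, where it matters, without control 17 as well. The number of arrays limits the precision, and p-values weigh a difference against the spread between these animals.

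A level is a log2 distance from the 75th percentile of the same array, and a difference is prednisolone minus control on that log2 scale. Levels of different genes come from different probes and are not comparable. In whole tissue, fewer cells of a type and less RNA per cell cannot be told apart.

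None of the 21 genes passed the threshold, an adjusted p under 0.05 with limma. The share called among all 13433 genes was 0.0%, with no adjusted p lower than 0.883. Taking unadjusted p instead, 1 of the 21 had a value under 0.05, the crossover gene MSH4, where 2.43% of all genes did. Without prednisolone 30 it was again 1 of 21, MSH4, against 4.15% of all genes. Without both prednisolone 30 and control 17 there were 2 of 21, MSH4 and the zipper gene SYCP1, against 4.96% of all genes. In the deposited table none of the 21 reached an unadjusted p under 0.05, where 5.44% of all genes did, and 0 passed the adjusted threshold. In no gene of the list were the prednisolone and control values fully separate, either on all 15 arrays, where 0.0447% of all genes were, or without these 2 animals, where 0.119% were.

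By direction alone, 16 of the 21 genes averaged lower in prednisolone testis, with a median difference of -0.09, while 48.1% of all named genes were lower with a median of 0.01. Without prednisolone 30 the count was 13 of 21 and the median -0.02, where 47.5% of all genes were lower. It was 15 of 21 without both animals, with a median of -0.09, against 48.4% of all genes. Of the 21, 14 were lower in the deposited table, with a median of -0.05, against 51.1% of all genes. Without control 17 that table gave 18 of 21, with a median of -0.10, against 49.4% of all genes. Leaving only control 17 out of the scanner values also gave 18 of 21, with a median of -0.19, against 49.8%. Under median scaling 17 of 21 were lower, against 57.1% of all genes. The direction was not the same in every batch: 2 of 21 were lower within slide 1, against 46.7% of all genes, and 9 of 21 within scan day 1 without prednisolone 30, against 46.1%. Within slide 2, with prednisolone 29 and 30 and control 23, 16 of 21 were lower, against 51.7%. Control 17 was among the few controls of slide 1 and of scan day 1. Within scan day 1 without both animals, 15 of 21 were lower, against 49.8% of all genes. The genes of such a list are not independent of each other, and no test was attached to these counts. Within groups the list varied about as much as other genes: the median standard deviation over 14 arrays was 0.312 for the 21 genes and 0.316 for all genes. BRCA2 varied least at 0.160 and REC8 most at 0.851.

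**Figure D1:**
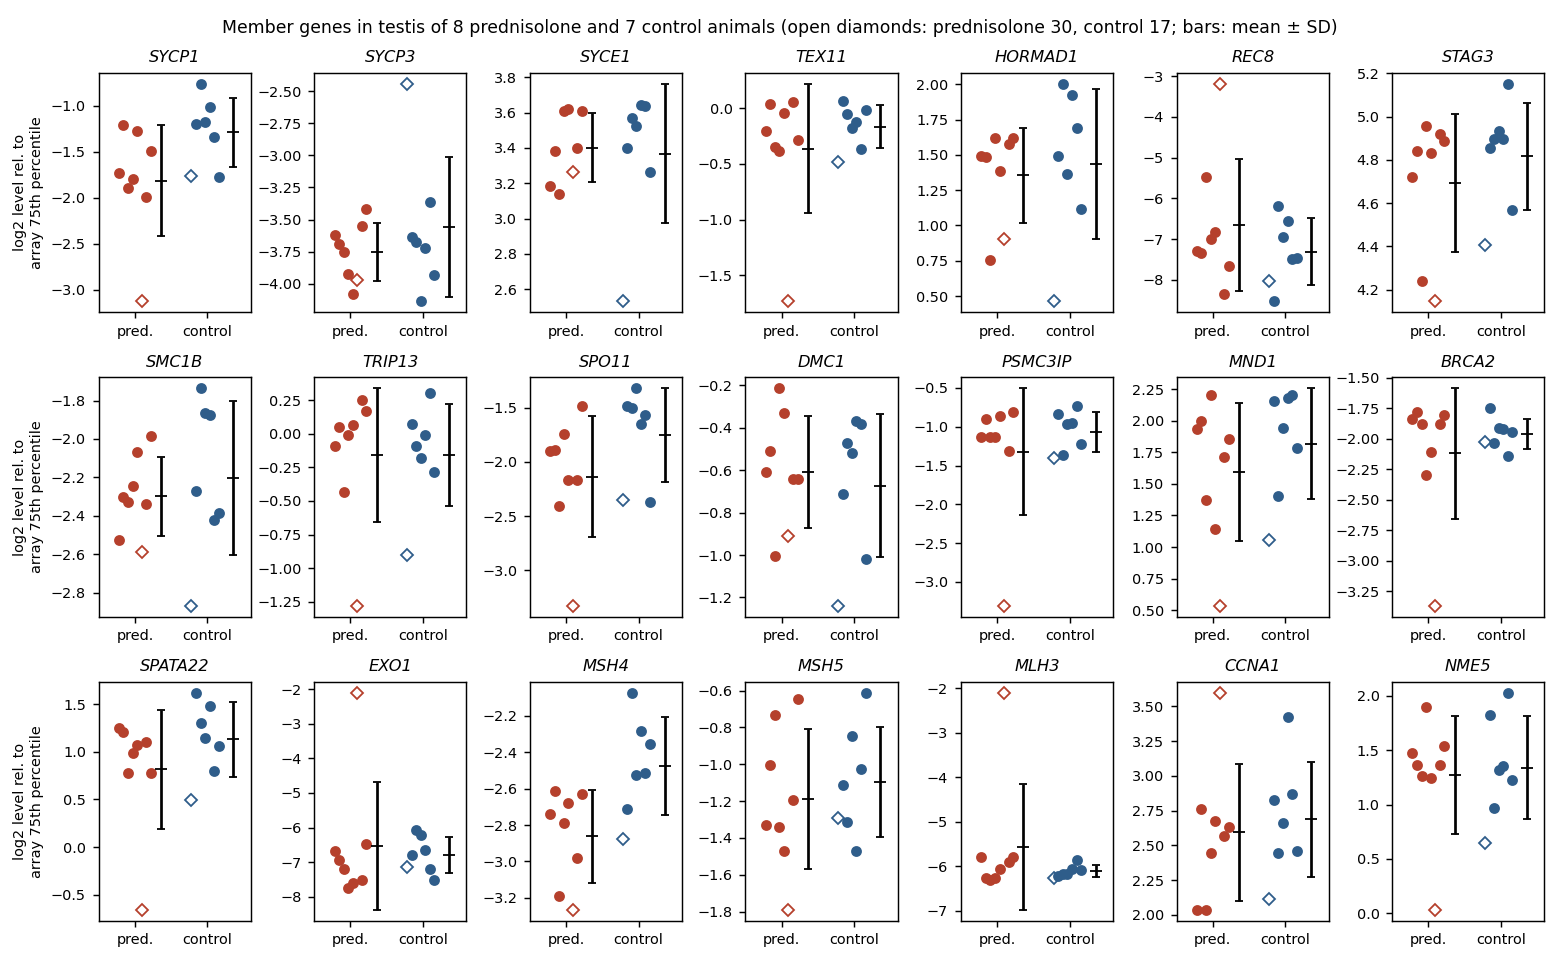
Level of each of the 21 tested genes (vertical axis, log2 relative to the array's 75th percentile, a separate scale per gene) in 8 prednisolone and 7 control animals, 1 point per animal, with mean ± SD bars beside each group. The groups overlap in every gene, and the open diamonds of prednisolone 30 and control 17 often lie at the edge of their group.

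Among the genes of the synaptonemal complex, SYCP1 had the lowest average relative to the controls. SYCP1 encodes the transverse filament that spans the space between paired axes. Its level in prednisolone testis ran from -3.13 through a median of -1.76 to -1.21, against -1.77, -1.19 and -0.76 in control testis. Prednisolone 30 was the lowest of the treated animals and was not above background there, and the next lowest, prednisolone 31, had -1.99. The groups overlapped: prednisolone 25, 26, 29 and 32 lay above the lowest control, animal 24. The difference was -0.52 (SE 0.26, 95% interval -1.07 to 0.02, unadjusted p 0.0571, adjusted p 0.883), or 69.5% of the control level. Without prednisolone 30 it was -0.34 (SE 0.18, adjusted p 0.980), and without both animals -0.42 (SE 0.17, unadjusted p 0.0283, adjusted p 0.931). In the deposited table SYCP1 differed by -0.30 (SE 0.18, adjusted p 0.852).

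SYCE1, a central element protein that joins the SYCP1 filaments in the middle of the zipper, was nearly level between groups. Prednisolone testis had 3.14 at the lowest, 3.39 at the median and 3.62 at the highest, against 2.53, 3.53 and 3.64 in control testis. The 2.53 belonged to control 17, and the other 6 controls began at 3.26. The difference in SYCE1 was 0.03 (SE 0.17, adjusted p 0.962). It was 0.05 without prednisolone 30 (SE 0.17), -0.11 without control 17 and -0.09 without both animals (SE 0.12).

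SYCP3 encodes a lateral element protein of the chromosome axis. Prednisolone testis ran from -4.08 through -3.72 to -3.42, against -4.14, -3.68 and -2.44 in control testis. Control 17 was the highest of all animals at -2.44, although it was the lowest control in 14 other genes of the list. The accession and gene number of this probe name SYCP3, but its description names CHPT1, a phospholipid enzyme encoded next to it, and the array has no other probe named CHPT1. Which of these transcripts the probe reports was not settled. Its difference was -0.19 (SE 0.21, adjusted p 0.883). It was -0.16 without prednisolone 30, not above background here, -0.0050 without control 17 and 0.03 without both animals.

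TEX11, an X-linked protein that promotes pairing and crossover formation in mouse, differed by -0.20 (SE 0.23, adjusted p 0.883). Its prednisolone values spanned -1.73 to 0.06, against -0.48 to 0.07 in control testis, and the -1.73 was again prednisolone 30. Without that animal the difference in TEX11 was -0.0024 (SE 0.12). Of the 4 tested genes grouped here with the synaptonemal complex, TEX11 and the unsettled SYCP3 probe included, 3 averaged lower on all arrays.

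Among the chromosome axis and meiotic cohesin genes, 4 of 5 averaged slightly lower on all arrays, and the dim REC8 averaged higher. HORMAD1 marks axes that have not yet paired. Its level ran from 0.76 through 1.49 to 1.62 in prednisolone testis, against 0.46, 1.49 and 2.0 in control testis. Prednisolone 27 and control 17 were the lowest of their groups. The difference was -0.08 (SE 0.22, adjusted p 0.937). It was -0.02 without prednisolone 30, -0.24 without control 17 and -0.18 without both. TRIP13, the ATPase that strips HORMAD proteins from paired axes, spanned -1.28 to 0.25 in prednisolone testis and -0.90 to 0.31 in control testis. Its difference was -0.0025 (SE 0.23, adjusted p 0.998), 0.16 without prednisolone 30 (SE 0.16), -0.13 without control 17 and 0.03 without both.

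STAG3 and SMC1B are subunits of meiotic cohesin, the ring that holds sister chromatids together. STAG3 had 4.14 at the lowest, 4.84 at the median and 4.96 at the highest in prednisolone testis, against 4.41, 4.90 and 5.15 in control testis. The 2 lowest treated animals, prednisolone 30 and 27, lay below every control. The STAG3 difference was -0.12 (SE 0.17, adjusted p 0.886). It was -0.04 without prednisolone 30, -0.19 without control 17 and -0.11 without both. A further STAG3 probe differed by 0.17 (SE 0.15), in the opposite direction.

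SMC1B ran from -2.59 through -2.31 to -1.98 in prednisolone testis, against -2.87, -2.27 and -1.74 in control testis. Control 17 was the lowest of all 15 animals, and the difference was -0.09 (SE 0.17, adjusted p 0.906). It was -0.05 without prednisolone 30, not above background for SMC1B, -0.20 without control 17 and -0.16 without both.

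REC8, the cohesin subunit cleaved when chromosomes part, was barely measured. It was well above background in 5 prednisolone and 2 control animals. Prednisolone testis ran from -8.35 through -7.15 to -3.20, against -8.53, -7.47 and -6.18 in control testis. The -3.20 came from prednisolone 30, on which REC8 was not above background, and the highest of the other treated animals was prednisolone 27 at -5.48. The difference of 0.67 (SE 0.62, adjusted p 0.883) became 0.17 without prednisolone 30 (SE 0.40). Its 95% interval there, -0.68 to 1.03, was the widest of the list.

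**Figure D2:**
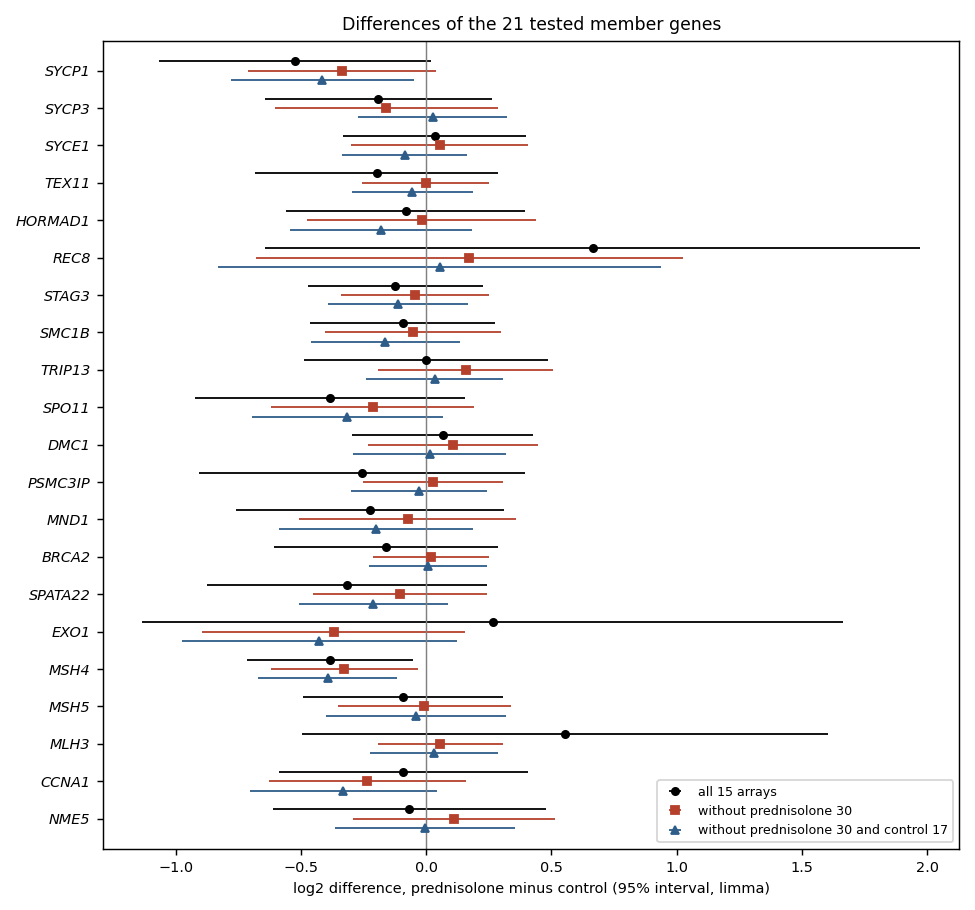
Difference of each tested gene, prednisolone minus control, in log2 units (horizontal axis) with limma 95% intervals, for all 15 arrays (black), without prednisolone 30 (red) and without prednisolone 30 and control 17 (blue). Only MSH4, at -0.38, -0.33 and -0.39, has an interval below 0 in all 3 fits, and the wide black intervals of REC8, EXO1 and MLH3 narrow once prednisolone 30 is left out.

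Genes of break formation and strand exchange came next. SPO11, the topoisomerase-like enzyme that makes the meiotic breaks, averaged lower in prednisolone testis without passing the test. Its level ran from -3.33 through -2.03 to -1.48 there, against -2.37, -1.56 and -1.32 in control testis. Controls 17 and 24 lay apart from the other 5 controls, at -2.36 and -2.37. Every control except control 21, at -1.32, lay inside the treated range. The difference was -0.38 (SE 0.25, adjusted p 0.883), or 76.6% of the control level. Without prednisolone 30, not above background for SPO11, it was -0.21 (SE 0.19, adjusted p 0.980), and without both animals -0.32 (SE 0.18, adjusted p 0.931).

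DMC1, the meiosis-specific recombinase that coats single-stranded DNA and invades the homologue, averaged slightly higher. Prednisolone testis had -1.01 at the lowest, -0.62 at the median and -0.21 at the highest, against -1.24, -0.52 and -0.37 in control testis. The difference in DMC1 was 0.07 (SE 0.17, adjusted p 0.933), with an interval of -0.30 to 0.43. It was 0.11 without prednisolone 30, -0.03 without control 17 and 0.01 without both. PSMC3IP and MND1 form the complex that helps DMC1 invade. PSMC3IP differed by -0.26 (SE 0.31, adjusted p 0.883), and by 0.03 without prednisolone 30, whose -3.31 was not above background while the other treated animals began at -1.31. MND1 differed by -0.22 (SE 0.25, adjusted p 0.883), by -0.07 without prednisolone 30, by -0.35 without control 17 and by -0.20 without both.

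BRCA2 loads recombinases onto DNA. Its brighter probe ran from -3.37 through -1.88 to -1.78 in prednisolone testis, against -2.14, -1.95 and -1.75 in control testis. All treated animals but prednisolone 30 lay at -2.30 or above. The difference in BRCA2 was -0.16 (SE 0.21, adjusted p 0.886), and 0.02 without prednisolone 30, not above background for it (SE 0.11, 95% interval -0.21 to 0.25). Its other probe differed by 0.16 (SE 0.12).

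SPATA22, a partner of the single-strand binding protein MEIOB in mouse, differed by -0.31 (SE 0.26, adjusted p 0.883). Its prednisolone values spanned -0.66 to 1.25, against 0.49 to 1.62 in control testis, and without prednisolone 30 the difference was -0.10 (SE 0.16). It was -0.42 without control 17 and -0.21 without both animals. EXO1, the exonuclease that trims break ends, was above background on 10 arrays. It differed by 0.27 on all arrays (SE 0.66, adjusted p 0.930) but by -0.37 without prednisolone 30 (SE 0.25, adjusted p 0.980). In this role group 5 of 7 genes averaged lower on all arrays, and 4 of 7 without prednisolone 30.

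MSH4, from the crossover genes, had the smallest unadjusted p of the list. MSH4 pairs with MSH5 in a clamp that stabilises recombination joints destined to become crossovers. Its level ran from -3.27 through -2.76 to -2.61 in prednisolone testis, against -2.88, -2.52 and -2.07 in control testis. Every one of the 8 treated animals was below -2.48, the mean of the controls, but controls 17 and 18, at -2.88 and -2.71, lay inside the treated range. Prednisolone 30, the lowest of all, was not above background for MSH4. The difference was -0.38 (SE 0.16, 95% interval -0.72 to -0.05, unadjusted p 0.0253, adjusted p 0.883), or 76.6% of the control level. It was -0.33 without prednisolone 30 (SE 0.14, unadjusted p 0.0308, adjusted p 0.980) and -0.39 without both animals (SE 0.13, unadjusted p 0.00832, adjusted p 0.931). The deposited table gave -0.27 (SE 0.14, adjusted p 0.846). In that table prednisolone 30 had 8.49 for MSH4 on the log2 scale, above the other treated animals, whose highest was 8.30.

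MSH5 is the partner of MSH4 in that clamp. Its brighter probe ran from -1.79 through -1.26 to -0.65 in prednisolone testis, against -1.47, -1.11 and -0.61 in control testis, so the treated values covered nearly the whole control range. The difference in MSH5 was -0.09 (SE 0.19, adjusted p 0.911), and -0.0072 without prednisolone 30 (SE 0.16). A dimmer MSH5 probe differed by 0.15 (SE 0.24), and by 0.30 without prednisolone 30 (SE 0.18, adjusted p 0.980). MSH5 was named through the probe descriptions, as were MLH3 and NME5.

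MLH3, a subunit of the nuclease that resolves joints into crossovers, was dim. Prednisolone testis ran from -6.31 through -5.99 to -2.09, against -6.26, -6.17 and -5.86 in control testis. Only prednisolone 30, at -2.09 and not above background, lay far from the rest, and the other treated animals reached no higher than -5.79. Its difference of 0.55 (SE 0.50, adjusted p 0.883) was 0.06 without that animal (SE 0.12, 95% interval -0.19 to 0.31).

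The remaining germ cell genes were CCNA1 and NME5. CCNA1, the germ cell cyclin needed for male meiotic division in mouse, ran from 2.04 through 2.60 to 3.60 in prednisolone testis, against 2.1, 2.66 and 3.43 in control testis. The highest value of each group came from prednisolone 30 and control 22. The CCNA1 difference was -0.09 (SE 0.23, adjusted p 0.932), and it was larger without prednisolone 30, at -0.23 (SE 0.19, adjusted p 0.980), and without both animals, at -0.33 (SE 0.18, adjusted p 0.931). NME5, a nucleoside diphosphate kinase family gene of the germ line, differed by -0.07 (SE 0.26, adjusted p 0.950), by 0.11 without prednisolone 30 (SE 0.19), by -0.18 without control 17 and by -0.0047 without both.

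Animals differed from each other across the whole list. With each gene centred on its mean over the 14 arrays other than prednisolone 30, control 17 had a median of -0.45 over the 21 genes, with 20 of 21 below 0. It was the lowest of the 7 controls in 14 genes, where it was lowest in 34.1% of all genes. Control 24 had a median of -0.16, with 15 of 21 below 0, and the other 5 controls had medians of 0.10 to 0.25.

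Among treated animals prednisolone 27 was low in the list, with a median of -0.26 and 18 of 21 genes below 0. It was the lowest treated animal other than prednisolone 30 in 9 genes, where it was lowest in 23.9% of all genes. Prednisolone 32 was the highest treated animal, with a median of 0.15. Prednisolone 30 had a median of -0.65 from the scanner file, with 17 of 21 below 0. Its mean over the centred genes was -0.17 in that file, inside the range of the other treated animals, -0.18 to 0.12. That mean includes REC8, EXO1 and MLH3, at -3.20, -2.09 and -2.09 and not above background on this array. The highest values of the other treated animals were -5.48, -6.49 and -5.79. Over the 4 synaptonemal complex genes, which leave these out, its mean was -0.92, against -0.24 to 0.10 in the other treated animals. In the deposited table the mean of prednisolone 30 over the 21 genes was -0.03, inside the range of the other treated animals there, -0.18 to 0.10.

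**Figure D3:**
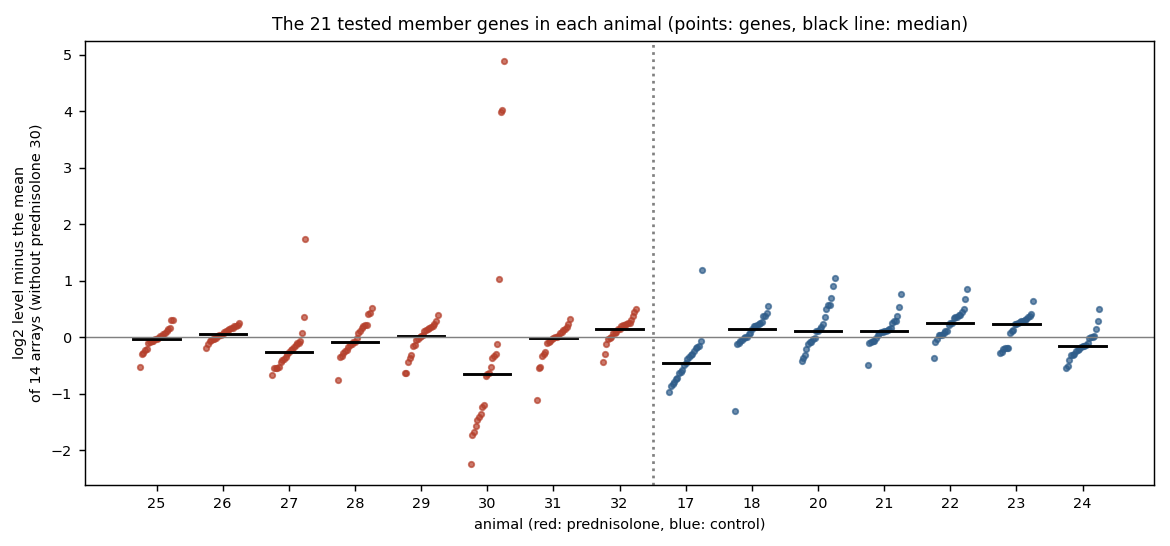
Centred log2 level of the 21 tested genes (vertical axis, 0 is the gene's mean over 14 arrays) in each animal, prednisolone in red on the left and control in blue on the right, with 1 point per gene and a black line at the median. Control 17 has a median of -0.45 and prednisolone 27 of -0.26, while 3 dim genes of prednisolone 30 lie far above the rest.

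Markers of other cells moved with the low values of these animals. In control 17 the mean centred level was -0.81 for 8 germ cell markers and -0.79 for 14 spermatid markers. It was 1.93 for 6 connective tissue markers, 1.47 for 6 peritubular and smooth muscle markers, 0.92 for 6 endothelium markers and 0.63 for 6 macrophage markers. Sertoli cell markers stood at 0.34 in this animal, Leydig cell markers at 0.03 and spermatogonium markers at -0.07. In the other controls connective tissue markers lay between -0.26 and 0.40 and germ cell markers between -0.11 and 0.19.

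In prednisolone 27 the germ cell markers stood at -0.30, the Leydig cell markers at 0.75 and the Sertoli cell markers at 0.53. Its spermatid markers stood at -0.14 and its spermatogonium markers at 0.22. Peritubular and smooth muscle markers stood at 0.36 in this animal, endothelium at 0.35, connective tissue at 0.16 and macrophage markers at 0.12. On the dim array of prednisolone 30, Sertoli cell markers stood at -0.94, connective tissue at -0.87 and peritubular and smooth muscle markers at -1.41. Leydig cell markers stood at 0.36 there and endothelium markers at 1.33. RNASE10, the only epididymis marker tested, stood at 2.27 in control 17 and between -0.99 and 0.32 in the other controls. None of the 4 epididymis markers with a probe was above background on 14 or more arrays, among them CRISP1, LCN9 and ADAM7. The part of these cell types in the low values was not tested.

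**Figure D4:**
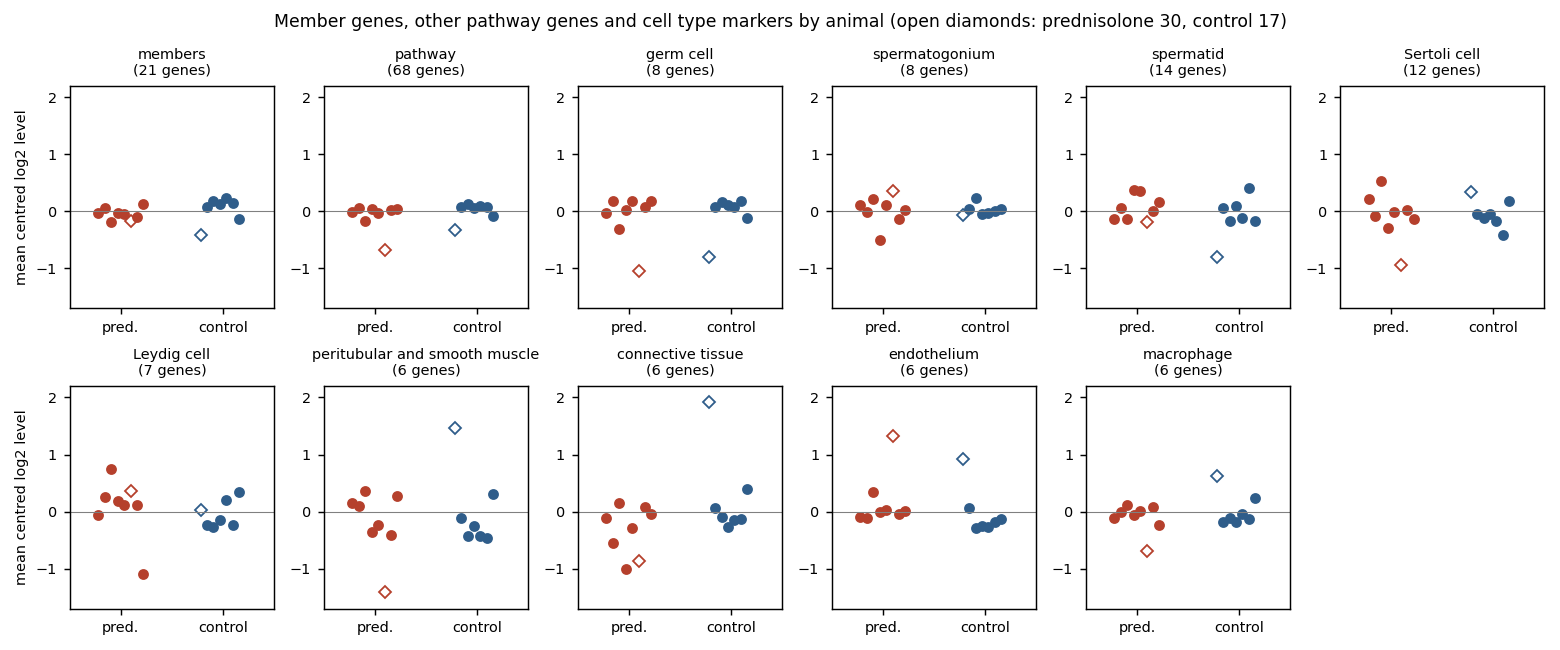
Mean centred log2 level (vertical axis, the same scale in every panel) of the 21 tested genes, of 68 other pathway genes and of cell type markers, with 8 prednisolone animals left of 7 control animals in each panel and 1 point per animal. Control 17, the open blue diamond, is the lowest control in germ cell (-0.81) and spermatid (-0.79) markers and the highest in connective tissue (1.93) and smooth muscle (1.47) markers.

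The scanner files give the slide and the scan day of each array. Both groups were present on slide 1, on slide 2 and on scan day 1, and each of the remaining slides and days carried 1 group. Within scan day 1, with 6 prednisolone and 3 control animals, the differences were -0.12 for MSH4 (SE 0.23), -0.37 for SYCP1 (SE 0.42) and -0.35 for SPO11 (SE 0.40). With prednisolone 30 left out as well, they were -0.03 for MSH4, -0.11 for SYCP1 and -0.12 for SPO11. With control 17 left out too they were -0.12 for MSH4 (SE 0.15), -0.27 for SYCP1 (SE 0.22) and -0.40 for SPO11 (SE 0.20, adjusted p 0.617). Within slide 1, with 2 animals a group, MSH4 differed by 0.12, SYCP1 by 0.01 and SPO11 by 0.03. Control 17 was on this slide, and without it control 18 is the only control left there. SPO11 had -1.90 and -1.89 in prednisolone 25 and 26 against -1.49 in control 18. SYCP1 had -1.73 and -1.21 against -1.19 in the same animals, so both genes were then lower in the treated animals. MSH4 had -2.74 and -2.61 against -2.71, on both sides of control 18. On slide 2, with prednisolone 29 and 30 and control 23, MSH4 differed by -0.46, SYCP1 by -0.86 and SPO11 by -1.19. None of the 3 genes was above background on prednisolone 30, and without it 1 animal of each group is left on that slide. SYCP1 then had -1.27 in prednisolone 29 and -1.34 in control 23, so its direction turned. MSH4 had -2.68 in prednisolone 29 and -2.52 in control 23, and SPO11 had -2.17 and -1.56 in the same animals. The lower MSH4 average therefore did not hold within slide 1, with 2 animals a group, and within scan day 1 it was within its error. On slide 2 MSH4 was lower with and without prednisolone 30, against 1 control.

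Of 100 other genes of meiotic recombination and pairing, 68 were tested and 0 passed the threshold. On all arrays 48 of the 68 averaged lower in prednisolone testis, with a median difference of -0.13, but 34 of 68 did without prednisolone 30, with a median of -0.0022. Without both animals 49 of 68 were lower, with a median of -0.07, against 48.4% of all genes.

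Among the named partners of the listed genes, TEX12, a central element protein, lay closest to SYCP1 in its difference. It spanned -3.35 to -0.70 in prednisolone testis and -1.27 to 0.03 in control testis. TEX12 differed by -0.48 (SE 0.35, adjusted p 0.883), by -0.17 without prednisolone 30 and by -0.27 without both animals. CCNB1IP1, the ligase-like factor HEI10 that matures crossovers, differed by -0.15 (SE 0.17, adjusted p 0.883) and by -0.27 without both animals (SE 0.13, adjusted p 0.931).

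BRCA1, a repair protein acting at break ends, differed by -0.09 (SE 0.29), and by 0.16 without prednisolone 30. CDK2, found at crossover sites in mouse, differed by 0.03 (SE 0.21), and by 0.14 without prednisolone 30. A further CDK2 probe differed by -0.07 (SE 0.19). HFM1, a meiotic DNA helicase, differed by -0.05 (SE 0.18), and by 0.0081 without prednisolone 30. Its other probe differed by -0.25 (SE 0.24), and by -0.08 without that animal. HSPA2, the spermatocyte heat shock protein, differed by -0.15 (SE 0.24), and by 0.04 without prednisolone 30. MCM8, a helicase of recombination, differed by 0.47 (SE 0.52), and by -0.04 without prednisolone 30. MYBL1, a transcription factor of spermatocytes, was not above background on any array, and RAD21L1 and STRA8 had no named probe.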

How the data were processed

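Values were read as intensity from the deposited scanner files. Feature Extraction 9.5.1.1 had written these files, per the file headers, after subtracting background and detrending the signal. A second set of intensity values, a table deposited by the authors, had been scaled by a step that no source used here describes; the submitters' processing notes name R 2.11.1. The 42990 spots that are no controls belong to 21475 probes, and spots the scanner software marked as outliers were masked. From each log2 signal the 75th percentile of its array was subtracted, and spots were averaged per probe. A probe was tested when well above background on at least 7 of 15 arrays (18492 probes), and each gene is represented by whichever of its probes had the highest mean.

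Names came from the files and a bovine gene table of assembly ARS-UCD2.0. The genome build of the array is not given, so no coordinates are printed, and no probe sequences were used here. The comparison used limma 3.58.1 and R 4.3.3 (lmFit, eBayes, two-sided, Benjamini-Hochberg over all tested probes, threshold 0.05). The script was tested on simulated data. The 31 genes, the pathway and marker lists and the tests were chosen with earlier results of these data known. Every listed gene is named whatever its values, with group values for a set chosen by role, together with partners chosen by role; some of these are not reported here. Alternatives covered scaling, background correction with an offset of 50, the filter, the deposited table, slides, scan days and leaving out animals. The removal of prednisolone 30 together with control 17 was among them. Chosen after seeing the data were the deposited table without control 17, and scan day 1 without prednisolone 30 and without both animals.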

Additional observations from a re-analysis of the deposited data

Results flagged for a closer look

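A value is listed here when its gap to the nearest animal of its group was large for the group's range. Chance gives about 1 such value in 20 groups, or 3.4 of the 68 groups examined, and 25 were found. Of these, 17 came from prednisolone 30, the dim array, and 6 from control 17.

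Among the genes, prednisolone 30 was the lowest treated animal for SYCP1 (-3.13, the others from -1.99 to -1.21), TEX11 (-1.73), TRIP13 (-1.28), PSMC3IP (-3.31), BRCA2 (-3.37), SPATA22 (-0.66) and NME5 (0.0300). It was the highest for EXO1 (-2.09), MLH3 (-2.09) and CCNA1 (3.60). SYCP1, TEX11, PSMC3IP, BRCA2, EXO1 and MLH3 were not well above background on that array. SYCE1 was low in control 17, at 2.53 against 3.26 to 3.64 in the other controls.

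Among list means of centred levels, prednisolone 30 was lowest for the pathway genes (-0.68) and for germ cell (-1.04), peritubular and smooth muscle (-1.41) and macrophage (-0.68) markers. It was highest for endothelium (1.33) and blood (0.84) markers and for RNASE10 of the epididymis (6.86). Control 17 was lowest for germ cell markers (-0.81) and highest for peritubular and smooth muscle (1.47), connective tissue (1.93) and endothelium (0.92) markers and for RNASE10 (2.27). Leydig cell markers were low in prednisolone 32 (-1.08), and spermatogonium markers were high in control 20 (0.23).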

How the results depend on the processing

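No listed gene, pathway gene or other named gene passed the threshold under any alternative run. The smallest adjusted p of a listed gene was 0.464, for NME5 within scan day 1 without prednisolone 30 and control 17. The median difference of the listed genes was 0.16 within slide 1 and -0.59 within slide 2, which hold 4 and 3 animals. The median of all genes moved to -0.07 under quantile normalization and that of the listed genes to -0.17. Differences turned their direction against the fit on all arrays as follows, none past the threshold, and the cause was not tested. With quantile normalization, TRIP13 differed by 0.00495. With median scaling, SYCE1 differed by -0.0290. With normexp background correction and quantile normalization, SYCE1 differed by -0.0476, REC8 by -0.0104, SMC1B by 0.00336, TRIP13 by 0.150 and MLH3 by -0.00854. In the deposited table, TRIP13 differed by 0.140, PSMC3IP by 0.0266, BRCA2 by 0.00275, EXO1 by -0.319, MLH3 by -0.00675 and NME5 by 0.0575. With scan day as a block, and likewise within scan day 1, HORMAD1 differed by 0.195, SMC1B by 0.220, TRIP13 by 0.0368 and CCNA1 by 0.110. With slide as a block, HORMAD1 differed by 0.0885, SMC1B by 0.132 and CCNA1 by 0.0648. Within slide 1, SYCP1 differed by 0.00547, TEX11 by 0.121, HORMAD1 by 0.510, STAG3 by 0.148, SMC1B by 0.156, TRIP13 by 0.396, SPO11 by 0.0285, PSMC3IP by 0.107, MND1 by 0.359, BRCA2 by 0.0723, SPATA22 by 0.174, MSH4 by 0.116, MSH5 by 0.0323 and NME5 by 0.183. Within slide 2, SYCE1 differed by -0.195, SMC1B by 0.0952, DMC1 by -0.239 and CCNA1 by 0.267. With array weights, SYCP3 differed by 0.0924, SYCE1 by -0.0592, TEX11 by 0.0128, REC8 by -0.135, TRIP13 by 0.133, PSMC3IP by 0.0107, BRCA2 by 0.0454, EXO1 by -0.351 and NME5 by 0.0430. Without prednisolone 30 and control 17, SYCP3 differed by 0.0263, SYCE1 by -0.0863, TRIP13 by 0.0335, BRCA2 by 0.00755 and EXO1 by -0.426. In the deposited table without control 17, SYCP3 differed by 0.0347, SYCE1 by -0.0520, TRIP13 by 0.0232, DMC1 by -0.00937, EXO1 by -0.351 and MLH3 by -0.00675. Within scan day 1 without prednisolone 30, TEX11 differed by 0.171, HORMAD1 by 0.295, STAG3 by 0.0358, SMC1B by 0.278, TRIP13 by 0.266, BRCA2 by 0.0862, SPATA22 by 0.111, EXO1 by -0.00708 and MSH5 by 0.0129. Within scan day 1 without prednisolone 30 and control 17, SYCE1 differed by -0.0814, TEX11 by 0.0610, SMC1B by 0.104, BRCA2 by 0.0586 and EXO1 by -0.0573. With all tested probes of a gene averaged, STAG3 differed by 0.0217 and MSH5 by 0.0276. With each animal left out in turn, SYCE1 ranged from -0.106 to 0.0802, HORMAD1 from -0.244 to 0.0128, TRIP13 from -0.127 to 0.158, DMC1 from -0.0285 to 0.123, PSMC3IP from -0.328 to 0.0275, BRCA2 from -0.208 to 0.0183, EXO1 from -0.369 to 0.437, CCNA1 from -0.235 to 0.0318 and NME5 from -0.182 to 0.111. Over the same fits MSH4 ranged from -0.45 to -0.32, SYCP1 from -0.61 to -0.34 and SPO11 from -0.49 to -0.21. Without the filter on dim probes, with a stricter one, with outlier spots kept or with slide as a random block, no listed gene turned. No paired analysis was possible because the groups share no animal numbers. REC8 and EXO1 lay near background, which limits what their values show. MLH3 was dim, but it was well above background on every array except that of prednisolone 30.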
